A study of Mus musculus with 9 samples.

Results

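Mitochondrial solute carriers of the Slc25 family were followed in mouse brain microvessels and in the brain tissue around them. The genes were chosen by name, as those whose array annotation gives 1 gene symbol that starts with Slc25a. The array held 93 such probe sets (sets of short oligonucleotides that measure 1 transcript) for 44 genes. Each gene was read on its brightest probe set, by the mean of all 9 arrays. It was kept where that probe set had a log2 intensity of at least 4, taken as the edge of background, on at least 3 of the 9 arrays. This kept 38 of the 44 genes, among 12009 genes kept in all.

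Each of 3 groups held 3 arrays, 1 per sample, described by the labels as biological replicates. Embryonic fragments are pieces of small blood vessels (microvascular fragments) isolated from brains of NMRI embryos at embryonic day 18.5. Rest of brain is the tissue of NMRI embryos of the same embryonic day, 18.5, without those fragments. Adult fragments are microvascular fragments of brains of animals aged 1 year, 2 males and 1 female, of mixed C57/SV129 background. No transgene, mutation or treatment is named for any group. The 2 ages therefore differ in strain and in the RNA extraction kit too, and these cannot be told apart from age. For rest of brain replicate 3 the description names another embryonic day than the title and the remaining labels, which were followed.

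Slc25 carriers are small proteins of the mitochondrial inner membrane, built from repeats of a pair of membrane helices, and they exchange or import metabolites that the membrane would otherwise hold back. Members carry ADP and ATP, phosphate, the acids of the citric acid cycle, amino acids, cofactors and iron, and a few sit in other membranes. Brain endothelium is known for its many mitochondria, neurons for the aspartate-glutamate carrier of the malate-aspartate shuttle, and astrocytes for a glutamate carrier of their own.

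Values are log2 intensities after background correction and normalization by the authors. Array medians were 3.58 to 3.67, and on each array 47.4% to 48.1% of the probe sets had at least 4. Differences are log2 differences of group means ± standard error of 1 limma fit over all 9 arrays, and a gene was called at a Benjamini-Hochberg adjusted p under 0.05 over the 12009 genes. Precision is limited by there being 3 arrays a group. The labelled tissues carried their markers: all 8 endothelial markers were called higher in fragments of either age than in rest of brain, and all 8 neuronal markers lower. The summed level of the endothelial markers (log2) was 16.88 to 17.03 in embryonic fragments, 17.17 to 17.29 in adult fragments and 10.77 to 11.10 in rest of brain, where Pecam1 lay under 4 on every array. All 5 pericyte markers were higher in fragments of both ages, and of 5 markers of microglia and macrophages 5 passed as higher in embryonic and 4 in adult fragments. In tissue samples, fewer cells of a type and less RNA per cell cannot be told apart.

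Promoter sequence is shown for 4 members, the 2 with the most positive and the 2 with the most negative fitted difference among those called between embryonic fragments and rest of brain. Slc25a45 and Slc25a24 were high in fragments, and Slc25a18 and Slc25a23 were high in rest of brain. The size for Slc25a23 is only a bound, given further on, which lies below the differences of Slc25a14 and Slc25a29. Each line gives the 250 bases before a start listed in a RefSeq promoter table on GRCm38.p6, 5′ to 3′ on the gene's strand, with each CG dinucleotide in capitals. For Slc25a24 the listed start is the first base of the gene as RefSeq's gene table gives it. The listed starts of Slc25a45, Slc25a23 and Slc25a18 lie 21, 46 and 264 bases inside the gene by that table, so their windows lie partly or, for Slc25a18, wholly within it. For Slc25a23, 2 starts are listed, and the window of the first is shown.
Slc25a45, chr19:5877572-5877821, + strand: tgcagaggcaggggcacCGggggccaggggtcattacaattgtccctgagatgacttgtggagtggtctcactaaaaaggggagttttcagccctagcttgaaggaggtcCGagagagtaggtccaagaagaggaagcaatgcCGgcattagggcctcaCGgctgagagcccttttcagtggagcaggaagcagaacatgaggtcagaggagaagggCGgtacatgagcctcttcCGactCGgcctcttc
Slc25a24, chr3:109122899-109123148, + strand: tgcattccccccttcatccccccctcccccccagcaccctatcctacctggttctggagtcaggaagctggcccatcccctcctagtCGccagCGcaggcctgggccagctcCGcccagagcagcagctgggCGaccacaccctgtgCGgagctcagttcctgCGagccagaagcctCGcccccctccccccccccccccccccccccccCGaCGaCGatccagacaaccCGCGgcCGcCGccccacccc
Slc25a18, chr6:120773518-120773767, + strand: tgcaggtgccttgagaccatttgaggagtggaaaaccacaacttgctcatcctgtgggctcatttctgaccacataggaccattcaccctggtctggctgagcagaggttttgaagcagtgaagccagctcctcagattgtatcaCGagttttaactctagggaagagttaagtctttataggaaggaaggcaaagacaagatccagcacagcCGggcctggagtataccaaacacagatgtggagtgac
Slc25a23, chr17:57059864-57060113, - strand: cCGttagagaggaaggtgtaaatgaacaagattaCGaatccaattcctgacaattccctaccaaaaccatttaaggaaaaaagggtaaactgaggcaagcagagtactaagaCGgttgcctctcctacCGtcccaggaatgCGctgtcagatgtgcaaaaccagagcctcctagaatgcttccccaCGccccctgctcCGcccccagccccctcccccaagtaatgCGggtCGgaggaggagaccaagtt
These windows hold 7, 14, 2 and 9 CG dinucleotides in that order, against a median of 6 over all 32851 promoter windows of this length. RefSeq windows were found for 34 of the 44 genes. Among the genes called higher in fragments of both ages, 6 of 8 had a window and the median over their 7 windows was 14. Among those called lower at both ages, 9 of 12 had one, with a median of 8.5 over 14 windows. A pair of motifs of factors known for mitochondrial genes was searched on both strands: the centre of the nuclear respiratory factor 1 motif, GCATGCG, and an ETS motif, CCGGAAG. The first occurred in none of the 4 windows shown and in 2 of the 43 windows of the family (4.65%), those of Slc25a31 and Slc25a54, against 3.02% of all windows. The ETS motif occurred in none of the 4 and in 6 of the 43 (14.0%), against 6.91% of all windows. A match describes the letters of a window and is no evidence of binding.

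In embryos, the levels of many carriers differed between vessels and the remaining brain, about as often as those of genes in general. Of the 38 members, 11 were higher in embryonic fragments, 13 were lower and 14 were not called. This share was near that of all genes, of which 66.1% were called (28.9% higher and 37.2% lower). The median difference was 0.06 over the members and -0.10 over all genes, and 27 members had arrays that did not overlap between the groups, as did 76.7% of all genes. At least 2-fold differences were called for 6 higher and 10 lower members, and 43.0% of all genes had such a difference in 1 direction or the other. The largest differences were those of Slc25a45, higher in fragments, and Slc25a18, lower.

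**Figure D1:**
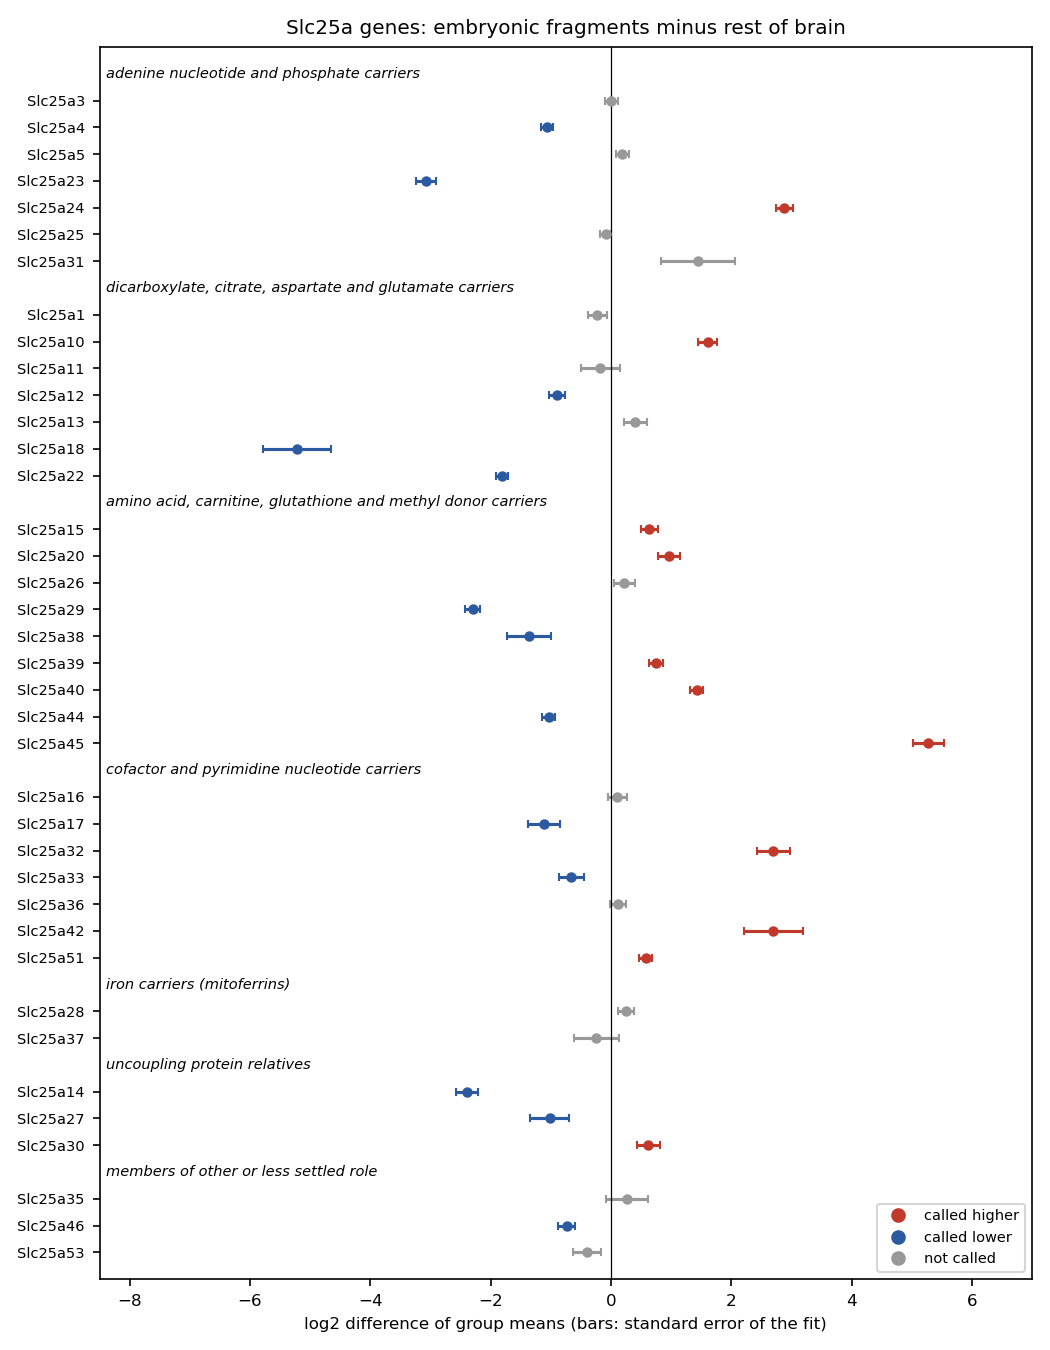
Log2 difference between embryonic fragments and rest of brain for the 38 kept Slc25a genes, grouped by role, with the standard error of the fit as bars. Red and blue points mark genes called higher (11) and lower (13) in fragments and grey points those not called; Slc25a45 lies farthest right at 5.28 and Slc25a18 farthest left at -5.22.

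Among carriers of adenine nucleotides and phosphate, 1 of 7 kept members was higher in embryonic fragments and 2 were lower. Slc25a24, a calcium-regulated exchanger of ATP-Mg for phosphate, read 10.92, 10.44 and 10.77 on the embryonic fragment arrays of replicates 1, 2 and 3 and 7.82, 7.83 and 7.85 in rest of brain. In adult fragments it read 11.84, 11.55 and 11.66. Both kinds of fragments lay above rest of brain on every array, and the difference in embryos was 2.88 ± 0.14, or 7.36-fold (adjusted p = 2.05e-07). Its relative Slc25a23 went the other way. It read 2.81, 2.58 and 2.82 in embryonic fragments, 5.51, 6.10 and 5.82 in rest of brain and 2.91, 2.91 and 2.56 in adult fragments. All fragment arrays were under 4, so that it was at least 3.51-fold lower (adjusted p = 5.10e-07). Slc25a23 was kept only through the 3 arrays of rest of brain. Slc25a25, another of these relatives, lay between 6.30 and 6.54 on all 9 arrays and was not called in any comparison. A dimmer probe set of Slc25a25 was called lower in adult fragments than in rest of brain (-0.40, adjusted p = 0.0391 over all probe sets). On the probe set used, the embryonic difference was -0.09 with a 95% interval of -0.30 to 0.12. Its probe set is of a kind whose probes can match other transcripts.

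Slc25a4 encodes the ADP/ATP carrier of heart, muscle and brain, and Slc25a5 the form found in most dividing cells. Slc25a4 read 13.33, 13.42 and 13.51 in embryonic fragments, 14.49, 14.43 and 14.53 in rest of brain and 14.15, 14.18 and 14.31 in adult fragments. It was 2.09-fold lower in embryonic fragments (-1.06 ± 0.10, adjusted p = 1.43e-05), with no overlap. Slc25a5 read 14.39, 14.49 and 14.51 in embryonic fragments and 14.42, 14.23 and 14.16 in rest of brain, which overlap, and 13.59, 13.79 and 13.70 in adult fragments. Its embryonic difference of 0.19 ± 0.11 was not called (adjusted p = 0.156). Of its other 7 probe sets 2 were called higher in embryonic fragments, with differences of 0.74 and 0.88. The phosphate carrier Slc25a3, which supplies phosphate for ATP synthesis, was not called in any comparison. Its values were 14.30, 14.36 and 14.36 in embryonic fragments, 14.35, 14.33 and 14.32 in rest of brain and 14.33, 14.11 and 14.38 in adult fragments. The embryonic difference was 0.01, with a 95% interval of -0.22 to 0.24. A dimmer probe set of Slc25a3, with means of 5.56 and 3.88, was called higher by 1.68 in embryonic fragments. Slc25a3 was accordingly called higher with the median over its probe sets (0.84, adjusted p = 0.00835), as was Slc25a5 (0.41, adjusted p = 0.0117). Slc25a31, an ADP/ATP carrier known from testis, was near background, with 5.56, 3.71 and 4.76 in embryonic fragments, 4.19, 2.67 and 2.83 in rest of brain and 3.59, 2.39 and 4.06 in adult fragments. Its groups overlapped and its difference of 1.45 ± 0.61 was not called (adjusted p = 0.0642). It was called with the replicate number as a block (adjusted p = 0.00418) and without embryonic fragments replicate 2 (0.0252), rest of brain replicate 1 (0.0284) or adult fragments replicate 2 (0.0479).

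Carriers of dicarboxylates, citrate, aspartate and glutamate had 1 of 7 kept members higher and 3 lower in embryonic fragments. Slc25a10, which exchanges malate and succinate for phosphate, read 8.67, 8.92 and 9.25 in embryonic fragments against 7.49, 7.24 and 7.29 in rest of brain. It was 3.04-fold higher in embryonic fragments (1.61 ± 0.16, adjusted p = 1.87e-05). Adult fragments, at 6.85, 6.99 and 6.95, lay below both, so that the level set embryonic vessels apart from the other 2 groups. Slc25a18, the glutamate carrier found in astrocytes, read 2.60, 3.85 and 3.65 in embryonic fragments, 9.15, 8.53 and 8.07 in rest of brain and 5.56, 3.86 and 5.95 in adult fragments. All embryonic fragment arrays were under 4, and it was at least 24.0-fold lower there than in rest of brain (adjusted p = 3.95e-05). Slc25a22, a glutamate carrier of neurons and glia, read 7.25, 7.33 and 7.42, then 9.05, 9.17 and 9.21, then 7.19, 7.32 and 7.19 in these 3 groups. It was 3.51-fold lower in embryonic fragments (-1.81 ± 0.10, adjusted p = 4.71e-07), and the 2 kinds of fragments overlapped. Slc25a12, the aspartate-glutamate carrier of brain and muscle, was lower by a smaller amount (-0.90 ± 0.13, adjusted p = 0.000304). Its counterpart Slc25a13, best known from liver, read 6.34, 6.72 and 7.21 in embryonic fragments and 6.35, 6.33 and 6.37 in rest of brain. The difference of 0.40 ± 0.19 was not called (adjusted p = 0.0963), but passed without embryonic fragments replicate 1 (0.61, adjusted p = 0.00870) and with array weights (0.51, adjusted p = 0.0186). Neither Slc25a1, the citrate carrier (-0.23), nor Slc25a11, which exchanges oxoglutarate for malate (-0.17), was called. Slc25a1 was called when the fit held the 2 embryonic groups alone (adjusted p = 0.0322).

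The lower levels of Slc25a12, Slc25a18 and Slc25a22 in fragments came beside low levels of neuronal and astrocyte markers. Slc25a10 of the same group was higher in embryonic fragments. The summed level of the 8 neuronal markers (log2) was 10.23 to 11.04 in embryonic fragments and 15.52 to 15.89 in rest of brain. In adult fragments it was 9.80 to 10.44, with Elavl3, Tubb3, Rbfox3 and Slc17a6 under 4 on every array. Of 5 kept astrocyte markers 4 were lower in embryonic fragments, with a summed level over 6 markers of 14.25 to 14.50 against 15.04 to 15.35, and Gfap lay under 4 on every embryonic fragment array. The part of these cells in the carrier differences was not tested.

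**Figure D2:**
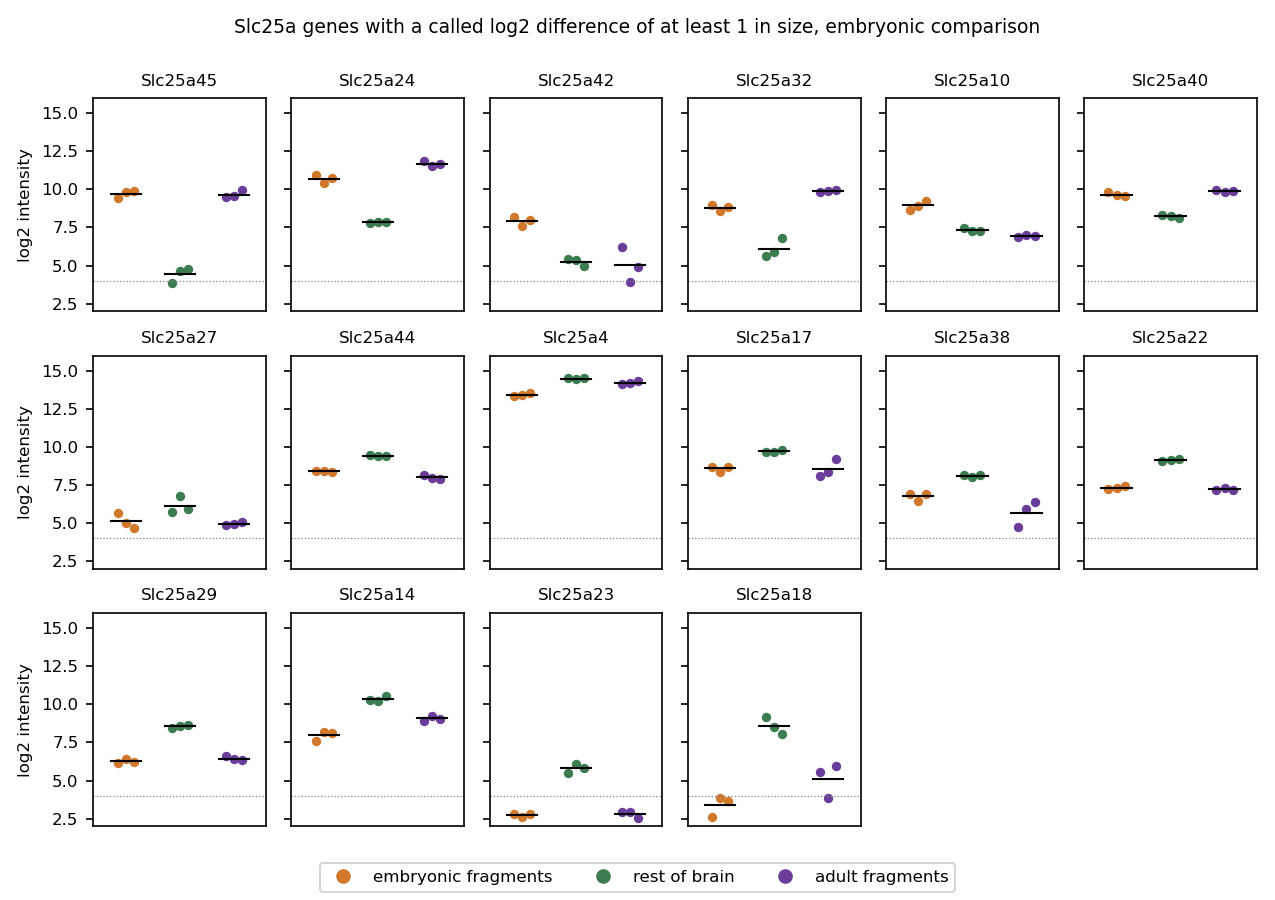
Log2 intensity on every array (points) and group mean (bars) of the 16 Slc25a genes with a called difference of at least 1 in size between embryonic fragments and rest of brain, from the most positive (Slc25a45) to the most negative (Slc25a18). The dotted line marks 4, the edge of background; Slc25a45 has all 6 fragment arrays of both ages between 9.43 and 9.94 and rest of brain between 3.88 and 4.81.

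Carriers of amino acids, carnitine, glutathione and methyl donors had 5 of 9 kept members higher in embryonic fragments, 3 lower and 1 not called. Slc25a45, linked in human cells to the import of methylated lysine for carnitine synthesis, read 9.43, 9.85 and 9.91 in embryonic fragments, 3.88, 4.67 and 4.81 in rest of brain and 9.50, 9.54 and 9.94 in adult fragments. The fragments of both ages overlapped, and both stood far above rest of brain. The difference in embryos was 5.28 ± 0.26, or 38.7-fold (adjusted p = 2.07e-07), with 1 array of rest of brain under 4. Slc25a40, a relative of the glutathione carrier, read 9.81, 9.62 and 9.57 in embryonic fragments, 8.34, 8.23 and 8.16 in rest of brain and 9.95, 9.80 and 9.92 in adult fragments. It was 2.68-fold higher in embryonic fragments (1.42 ± 0.11, adjusted p = 3.89e-06). Slc25a39, which imports glutathione, read 13.69, 13.78 and 13.81 in embryonic fragments, 13.04, 13.08 and 12.89 in rest of brain and 11.99, 12.07 and 11.74 in adult fragments. It was highest in embryonic vessels on all of its 4 tested probe sets, by 0.76 ± 0.12 over rest of brain on the one used (adjusted p = 0.000419). Slc25a20, which carries acylcarnitines for fatty acid oxidation, and Slc25a15, the ornithine carrier, were higher by 0.96 ± 0.18 and 0.64 ± 0.14 (adjusted p = 0.00118 and 0.00298). Slc25a26, the carrier of S-adenosylmethionine, was not called at 0.22.

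The 3 lower members of this group are carriers of amino acids. Slc25a29, a carrier of basic amino acids, read 6.13, 6.44 and 6.25 in embryonic fragments, 8.47, 8.59 and 8.65 in rest of brain and 6.59, 6.39 and 6.32 in adult fragments. It was 4.92-fold lower in embryonic fragments (-2.30 ± 0.12, adjusted p = 3.59e-07), and its other 4 tested probe sets were called lower too, with differences of -2.18 to -3.22. Slc25a38, which brings in glycine for haem synthesis, read 6.90, 6.47 and 6.90 in embryonic fragments, 8.19, 7.99 and 8.18 in rest of brain and 4.74, 5.93 and 6.40 in adult fragments. It was lower by 2.58-fold in embryonic fragments (-1.37 ± 0.37, adjusted p = 0.00945). Slc25a44, a carrier of branched-chain amino acids, read 8.41, 8.40 and 8.35 in embryonic fragments, 9.44, 9.39 and 9.43 in rest of brain and 8.18, 7.95 and 7.86 in adult fragments. It was 2.05-fold lower in embryonic fragments (adjusted p = 2.86e-05). For these 3 carriers rest of brain lay above both kinds of fragments on every array.

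Carriers of cofactors and pyrimidine nucleotides were higher in 3 of 7 cases and lower in 2. Slc25a32, which brings folate or FAD into mitochondria, read 8.99, 8.56 and 8.83 in embryonic fragments, 5.63, 5.87 and 6.78 in rest of brain and 9.84, 9.89 and 9.97 in adult fragments. It was 6.50-fold higher in embryonic fragments (2.70 ± 0.27, adjusted p = 2.41e-05), and another probe set gave 2.32. Slc25a42, a carrier of coenzyme A, read 8.17, 7.63 and 8.02 in embryonic fragments, 5.42, 5.34 and 4.95 in rest of brain and 6.22, 3.92 and 4.90 in adult fragments. It too was 6.50-fold higher in embryonic fragments than in rest of brain (2.70 ± 0.49, adjusted p = 0.00110), while adult fragments overlapped with rest of brain. Slc25a17, which sits in the peroxisome and carries coenzyme A and related cofactors, read 8.71, 8.38 and 8.68 in embryonic fragments, 9.65, 9.69 and 9.77 in rest of brain and 8.08, 8.33 and 9.20 in adult fragments. It was 2.16-fold lower in embryonic fragments (-1.11 ± 0.26, adjusted p = 0.00480). Slc25a33, a carrier of pyrimidine nucleotides, was lower by a smaller amount (-0.65 ± 0.21, adjusted p = 0.0218). Without replicate 1 (adjusted p = 0.0652) or 2 (0.0570) of rest of brain, or replicate 2 of embryonic fragments (0.0767), it was not called. Slc25a16, another carrier linked to coenzyme A, was not called at 0.11.

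Slc25a51, which imports NAD, gave conflicting readings. The probe set used was higher by 0.58 ± 0.11 in embryonic fragments (adjusted p = 0.00146), and a probe set of similar brightness was lower by 0.56, with means of 10.46 against 11.02 (adjusted p = 0.00118 over 20636 probe sets). The direction for this gene is therefore not settled. Slc25a36, the other carrier of pyrimidine nucleotides, was not called at 0.12, while a dimmer probe set was called lower by 1.13. Over all members, 16 genes had other tested probe sets, 30 in number. Of these, 15 were called in the gene's own direction in the embryonic comparison and 1, of Slc25a51, in the opposite one.

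**Figure D3:**
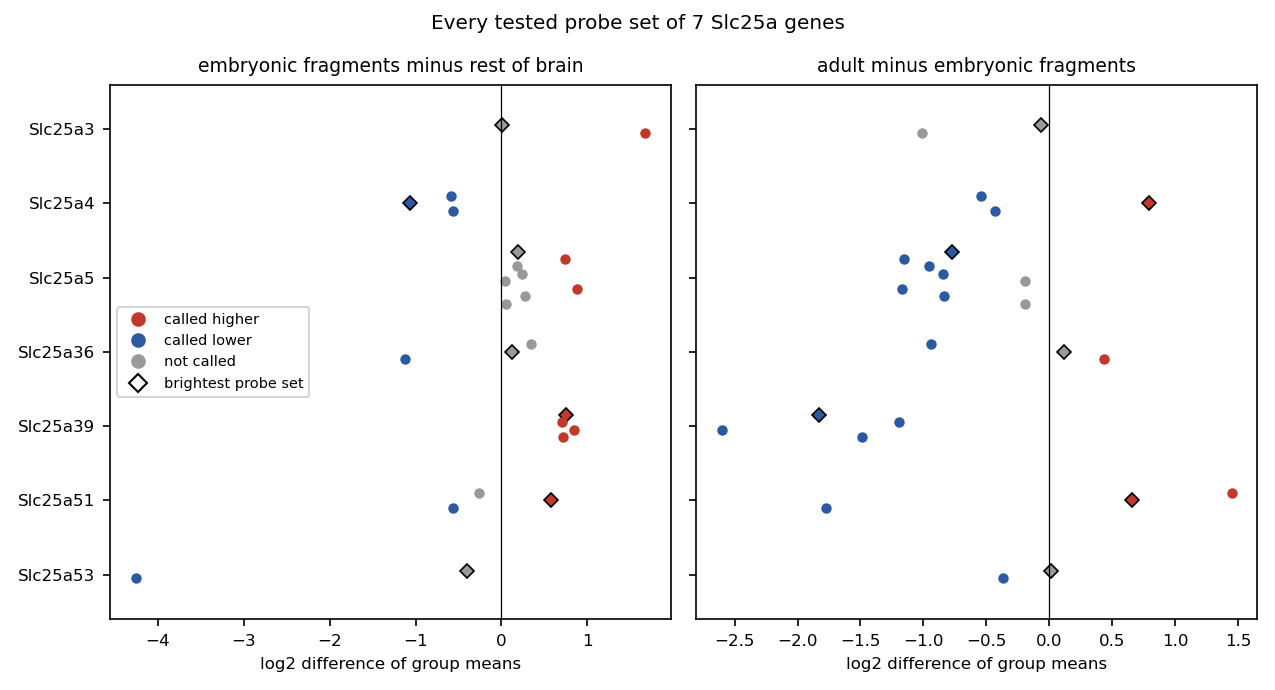
Log2 difference of every tested probe set of 7 Slc25a genes, between embryonic fragments and rest of brain (left) and between adult and embryonic fragments (right). Diamonds mark the brightest probe set, used in the tests, and red, blue and grey mark called higher, called lower and not called. Called probe sets of Slc25a51 lie on both sides of 0 in both panels, and those of Slc25a4 and Slc25a36 in the right panel.

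The 3 kept relatives of the uncoupling proteins were all called. Slc25a14 and Slc25a27 are known from brain. Slc25a14 read 7.61, 8.19 and 8.11 in embryonic fragments, 10.29, 10.22 and 10.56 in rest of brain and 8.93, 9.26 and 9.05 in adult fragments. It was 5.24-fold lower in embryonic fragments (-2.39 ± 0.18, adjusted p = 3.44e-06), with adult fragments between the embryonic groups. Slc25a27 read 5.67, 5.03 and 4.66 in embryonic fragments, 5.73, 6.79 and 5.89 in rest of brain and 4.84, 4.92 and 5.09 in adult fragments. It was lower by 1.02 ± 0.32 (adjusted p = 0.0201), a call lost with the replicate number as a block (adjusted p = 0.0658). It was also lost without replicate 2 of either group (0.0566 and 0.0611) and without replicate 3 of embryonic fragments (0.0719). Another probe set of Slc25a27 was called lower as well, by 1.90. Slc25a30, known from kidney, was higher by 0.62 ± 0.20 (adjusted p = 0.0208). That call was lost without replicate 1 of either group (0.0700 and 0.0675), and without replicate 2 of rest of brain (0.0749).

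Among the 3 kept members of other or less settled role, Slc25a46, an outer membrane protein of mitochondrial fission, was lower by 0.73 ± 0.14 in embryonic fragments (adjusted p = 0.00150). Slc25a35, whose cargo is not settled, lay under 4 on every embryonic array. Slc25a53 was not called on the probe set used (-0.40 ± 0.23, adjusted p = 0.163), though it passed with the replicate number as a block (adjusted p = 0.0149). A second probe set of Slc25a53 was far lower in embryonic fragments, with means of 3.37 against 7.63 (-4.26, adjusted p = 1.24e-08 over all probe sets). Both readings are of the same symbol, and which one follows the main transcript was not tested.

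Iron enters mitochondria through the mitoferrins Slc25a37, needed by red cell precursors, and Slc25a28, its counterpart in other cells. Slc25a37 read 9.05, 8.94 and 9.71 in embryonic fragments, 8.58, 9.79 and 10.07 in rest of brain and 7.63, 7.98 and 7.79 in adult fragments. The embryonic groups overlapped (-0.25 ± 0.37, adjusted p = 0.594), while every adult array lay below every embryonic one. Without rest of brain replicate 1, the lowest embryonic array, the embryonic difference became -0.70 and was called (adjusted p = 0.0411). Slc25a28 read 8.12, 8.18 and 7.95 in embryonic fragments, 7.80, 7.76 and 7.96 in rest of brain and 8.30, 8.18 and 8.60 in adult fragments. Its embryonic difference was 0.25, with a 95% interval of -0.06 to 0.55, and was not called. It was called after quantile normalization once more (0.28, adjusted p = 0.0475) and with array weights (0.27, adjusted p = 0.0415).

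Between the ages, Slc25a37 was 2.70-fold lower in adult than in embryonic fragments (-1.43 ± 0.37, adjusted p = 0.0101) and 3.20-fold lower than in rest of brain (adjusted p = 0.00291). Slc25a28 had a difference of 0.28 ± 0.13 between the ages (adjusted p = 0.114). It passed with cyclic loess (0.40, adjusted p = 0.0166) and with a further quantile normalization (0.39, adjusted p = 0.0135). Alas2, the haem synthesis enzyme of red cell precursors, moved with Slc25a37. It read 8.17, 8.52 and 10.00 in embryonic fragments, 8.97, 10.38 and 11.02 in rest of brain and 3.03, 3.29 and 3.29 in adult fragments. In each embryonic group, replicate 3 was the highest for both genes. Alas2 was lower by at least 29.8-fold in adult than in embryonic fragments (adjusted p = 5.39e-05). Of the other 4 red cell markers with a probe set, Slc4a1, an anion exchanger of the red cell membrane, was lower by 2.70 in adult fragments, and the globin Hbb-y was higher by 2.82. Hba-a1 and Epb42 lay under 4 on every array. The summed level of the 5 markers (log2) was 9.39 to 10.61 in embryonic fragments, 9.35 to 11.21 in rest of brain and 10.75 to 11.07 in adult fragments. With Alas2, Hba-a1 and Epb42 under 4 there, the adult sum rests on Hbb-y and Slc4a1, which moved in opposite directions. It is therefore no measure of red cell content as a whole. The part of red cells in the level of Slc25a37 was not tested.

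**Figure D4:**
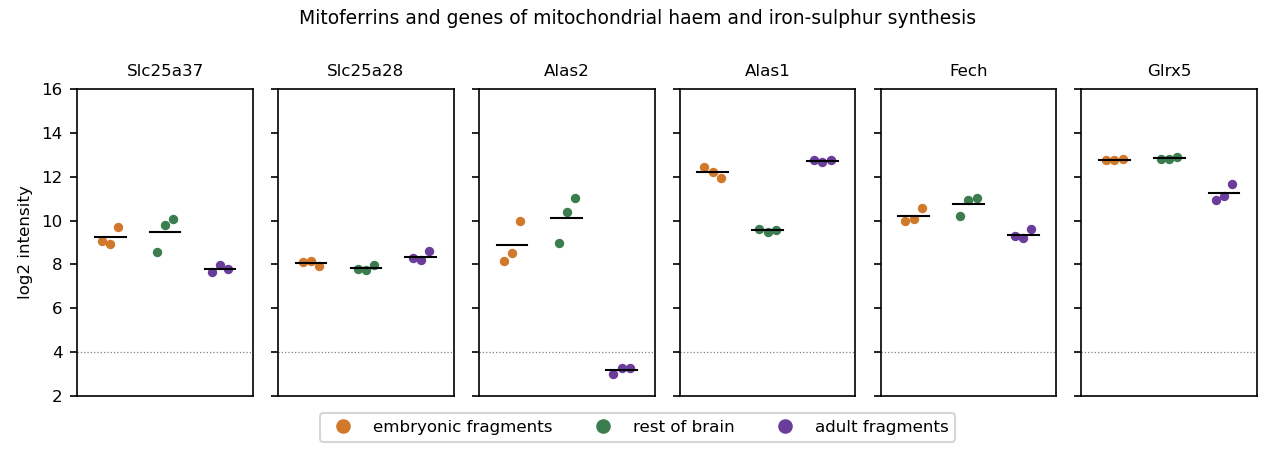
Log2 intensity on every array (points) and group mean (bars) for the mitoferrins Slc25a37 and Slc25a28 and 4 genes of mitochondrial haem and iron-sulphur synthesis. The dotted line marks 4; Slc25a37, Alas2, Fech and Glrx5 are lowest in adult fragments, Alas2 there at 3.03 to 3.29, and Alas1, the haem synthesis enzyme of most cells, is lowest in rest of brain.

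Adult and embryonic fragments both come from vessels and differ in age, strain and kit. Of the 38 members, 12 were higher in adult fragments, 8 were lower and 18 were not called, against 27.4% higher and 29.7% lower of all genes (57.1% called). The median difference was 0.03 over the members and -0.02 over all genes. At least 2-fold differences were called for 5 higher and 6 lower members, and 31.1% of all genes had one. Arrays of the 2 ages did not overlap for 21 members, as for 62.6% of all genes. Markers of endothelium were higher in 2 and lower in 2 of 8 cases between the ages, all 4 smooth muscle markers were higher in adult fragments, and all 4 markers of cell division were lower. The part of these cells in the carrier differences was not tested.

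**Figure D5:**
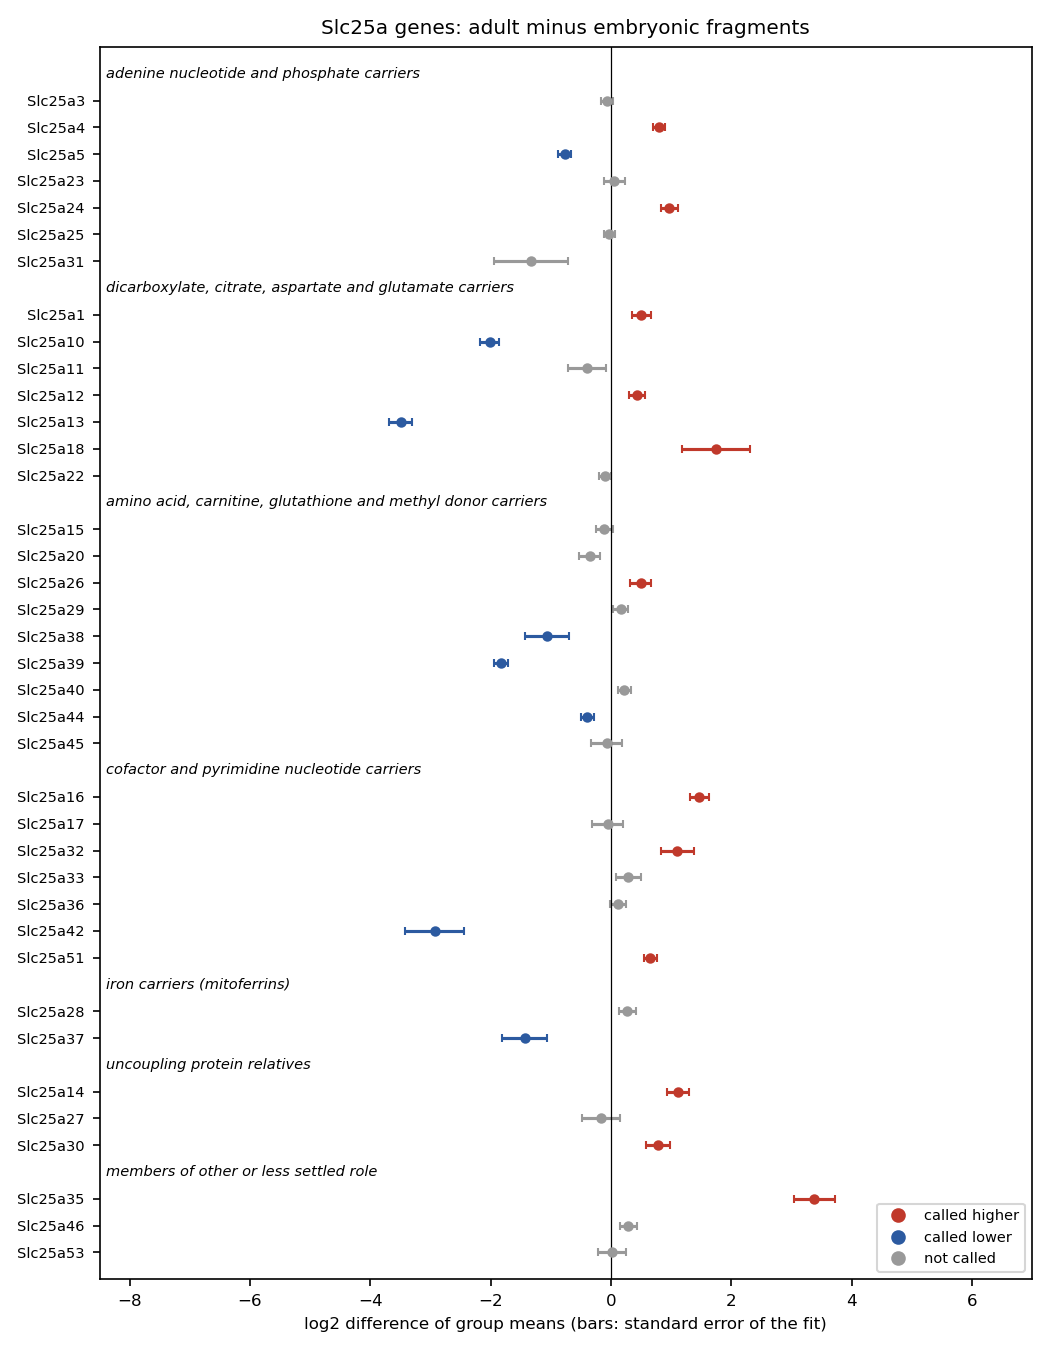
Log2 difference between adult and embryonic fragments for the 38 kept Slc25a genes, grouped by role, with the standard error of the fit as bars. Red and blue points mark genes called higher (12) and lower (8) in adult fragments; The outermost points, Slc25a35 at 3.38 and Slc25a13 at -3.50, are fitted values with 1 group under 4 on every array, so their sizes are only bounds (at least 3.56-fold and 6.75-fold), and that of Slc25a13 is below the 7.61-fold of Slc25a42.

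Lower in adult vessels, with at least 2-fold differences, were Slc25a10, Slc25a13, Slc25a37, Slc25a38, Slc25a39 and Slc25a42. Slc25a13 (citrin) read 3.29, 3.23 and 3.26 in adult fragments, all under 4, and was at least 6.75-fold lower than in embryonic fragments (adjusted p = 1.52e-06). It was at least 5.10-fold lower than in rest of brain (adjusted p = 7.80e-07). Slc25a42 was 7.61-fold lower in adult fragments (-2.93 ± 0.49, adjusted p = 0.000989), with 1 adult array under 4. Slc25a10 was 4.05-fold lower (-2.02 ± 0.16, adjusted p = 1.05e-05). Slc25a39 was 3.55-fold lower (-1.83 ± 0.12, adjusted p = 3.59e-06), and its other 3 tested probe sets gave -1.20 to -2.60. Slc25a5 was 1.71-fold lower (-0.77 ± 0.11, adjusted p = 0.000401), and 5 of its other 7 probe sets were called lower too. Slc25a10, Slc25a39 and Slc25a42 were the 3 members called higher in embryonic fragments than in rest of brain and lower in adult than in embryonic fragments.

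Calls of smaller size among the lower members were less firm. Slc25a38 was lower by 1.07 ± 0.37 in adult fragments (adjusted p = 0.0340). This call was lost without embryonic fragments replicate 1 (0.0869) or 3 (0.0907), without any 1 array of rest of brain (0.0522 to 0.0533), with no filter (0.0806), after quantile normalization once more (0.0635) and with the 2 groups fitted alone (0.0954). Without adult fragments replicate 1 it was -0.59 (adjusted p = 0.0366). Slc25a44 was lower by 0.39 ± 0.11 (adjusted p = 0.0130), a call lost with cyclic loess (0.0867), with a further quantile normalization (0.0990) and with the median over its probe sets (-0.25, adjusted p = 0.247). Without adult fragments replicate 3, 3 more members were called lower: Slc25a11 at -0.80 (adjusted p = 0.00571), Slc25a17 at -0.39 (0.0443) and Slc25a20 at -0.55 (0.00666). With all arrays their differences were -0.39, -0.05 and -0.35, none of them called. Slc25a20 also passed with array weights (0.0443).

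Among carriers higher in adult vessels, Slc25a35 read 2.35, 2.35 and 2.65 in embryonic fragments, 2.29, 2.12 and 2.13 in rest of brain and 6.23, 4.90 and 6.37 in adult fragments. It was at least 3.56-fold higher in adult than in embryonic fragments (adjusted p = 5.23e-05), and it was kept only through the 3 adult arrays. Slc25a16 read 10.24, 9.96 and 10.24 in embryonic fragments, 10.01, 9.89 and 10.22 in rest of brain and 11.88, 11.52 and 11.45 in adult fragments. Both embryonic groups overlapped and all adult arrays lay above them, with a difference of 1.47 ± 0.15 between the ages (2.77-fold, adjusted p = 6.66e-05). Slc25a14 was 2.16-fold higher in adult fragments (1.11 ± 0.18, adjusted p = 0.000809). Slc25a32 was 2.15-fold higher (1.11 ± 0.27, adjusted p = 0.00769), and its other tested probe set gave 0.48 and was not called. Slc25a24 was 1.96-fold higher (0.97 ± 0.14, adjusted p = 0.000429) and Slc25a30 1.72-fold (0.78 ± 0.20, adjusted p = 0.00873). With the median over the probe sets of a gene, the calls of Slc25a24 (0.42, adjusted p = 0.0609) and Slc25a32 (0.50, adjusted p = 0.150) between the ages were lost. The other probe set of Slc25a24 lay under 4 on every array. On the probe sets used, Slc25a24, Slc25a32 and Slc25a30 were called higher in embryonic fragments than in rest of brain and higher again in adult fragments.

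Slc25a18 was at least 2.17-fold higher in adult than in embryonic fragments (fitted difference 1.75 ± 0.57, adjusted p = 0.0268), with 1 adult array and all embryonic ones under 4. The call was lost without adult fragments replicate 1 (0.0860) or 3 (0.0864) or embryonic fragments replicate 1 (0.0877), with no filter (0.0699), with values under 4 set to 4 (0.0623) and with the 2 groups fitted alone (0.0681). Astrocyte markers were higher in adult fragments in 3 of 5 cases and lower in 2, beside this difference. Their summed level (log2) over 6 markers was 14.24 to 14.45 in adult fragments and 14.25 to 14.50 in embryonic ones. The aspartate-glutamate carrier Slc25a12 was higher by 0.44 ± 0.13 (adjusted p = 0.0205), a call lost without embryonic fragments replicate 3 (0.0656). Slc25a1 was higher by 0.50 ± 0.16 (adjusted p = 0.0241), a call lost without replicate 1 (0.0643) or 3 (0.0587) of embryonic fragments and with the 2 groups fitted alone (0.0632), and it was 0.32 without adult fragments replicate 3. Slc25a26 was higher by 0.50 ± 0.18 (adjusted p = 0.0400). This call was lost without adult fragments replicate 3 (0.29, adjusted p = 0.0689), without any 1 embryonic fragment array (0.0833 to 0.0889) or rest of brain replicate 1 (0.0598), and under several other settings (0.0520 to 0.521).

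The ADP/ATP carrier Slc25a4 and the NAD carrier Slc25a51 changed direction with the probe set. Slc25a4 was higher by 0.79 ± 0.10 in adult fragments on its brightest probe set (adjusted p = 0.000177), and lower by 0.54 and by 0.43 on the other 2 tested probe sets (adjusted p = 0.0243 and 0.0239 over all probe sets). All 3 were lower in fragments of both ages than in rest of brain. Slc25a51 was higher by 0.65 ± 0.11 on the probe set used, higher by 1.45 on a dim one and lower by 1.77 on another, which fell from 10.46 in embryonic to 8.68 in adult fragments. No direction between the ages is therefore given for either gene.

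For several carriers no difference between the ages was called. The difference of Slc25a45 was -0.07, with a 95% interval of -0.66 to 0.52, that of Slc25a22 was -0.10 (-0.33 to 0.13) and that of Slc25a29 was 0.16 (-0.12 to 0.44). For Slc25a3 it was -0.07 (-0.30 to 0.17), but -1.01 on its dimmer probe set, which was called when probe sets open to other transcripts were left out (adjusted p = 0.0499). Slc25a40 had a difference of 0.22 (-0.03 to 0.47), which passed after cyclic loess (0.35, adjusted p = 0.0218), and Slc25a29 passed after quantile normalization once more (0.35, adjusted p = 0.0477). Other probe sets of Slc25a29 pointed the other way between the ages. One was called lower by 0.47 (adjusted p = 0.0449 over all probe sets), and another had -0.53 and was not called. Slc25a31 had a difference of -1.33 ± 0.61 that passed without embryonic fragments replicate 2 (adjusted p = 0.0388). Slc25a46, at 0.29, passed after cyclic loess (0.0196) and without adult fragments replicate 2 (0.0321). Slc25a36 had a difference of 0.12 (-0.18 to 0.42) on the probe set used. Other probe sets of Slc25a36 were called in opposite directions between the ages. With the median over its probe sets Slc25a36 passed as higher in adult fragments (0.43, adjusted p = 0.0433).

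Rest of brain was sampled in embryos only. Adult fragments thus differ from it in tissue, age, strain and RNA extraction kit together, and these cannot be told apart. Set against this embryonic tissue, adult fragments had 12 members higher, 17 lower and 9 not called, while 33.1% of all genes were higher and 42.9% lower (76.0% called). At least 2-fold differences were called for 8 higher and 12 lower members, against 52.9% of all genes, and 30 members had arrays that did not overlap, against 79.9%. This comparison shares rest of brain with the embryonic one, so its values are given side by side with it. Calls in the same direction in both are thus partly built in. The share of all genes called in both was not counted, so the joint counts below are no trait of the family. Called higher in both were 8 members: Slc25a15, Slc25a20, Slc25a24, Slc25a30, Slc25a32, Slc25a40, Slc25a45 and, on the probe set used, Slc25a51. Called lower in both were 12: Slc25a4, Slc25a12, Slc25a14, Slc25a17, Slc25a18, Slc25a22, Slc25a23, Slc25a27, Slc25a29, Slc25a38, Slc25a44 and Slc25a46. Slc25a24 and Slc25a32 were 14.4-fold and 14.0-fold higher in adult fragments than in rest of brain, against 7.36-fold and 6.50-fold in embryonic fragments. Slc25a45 was 37.0-fold higher, against 38.7-fold. Slc25a10 and Slc25a39 were called in opposite directions, higher in embryonic and lower in adult fragments than in rest of brain. For Slc25a39 the adult difference was -1.07 ± 0.12 (adjusted p = 3.39e-05). For Slc25a10 it was -0.41 ± 0.16 (adjusted p = 0.0383), a call lost without any 1 array of adult fragments or of rest of brain (0.0530 to 0.123) and with cyclic loess (0.151). The smaller differences of Slc25a4 and Slc25a46 (-0.27 and -0.45) lost their calls after cyclic loess (0.202 and 0.0595). Slc25a4 also lost it without adult fragments replicate 1 (0.0847) or 2 (0.0726), rest of brain replicate 1 (0.0743) or 3 (0.0802), and replicate 2 of embryonic fragments (0.0509), and Slc25a46 without adult fragments replicate 2 (0.0526). With the median over the probe sets of a gene, Slc25a12 (-0.25, adjusted p = 0.531), Slc25a20 (0.30, adjusted p = 0.260) and Slc25a10 (-0.22, adjusted p = 0.184) lost their calls against rest of brain. Slc25a5, called lower at -0.58, lost its call without probe sets open to other transcripts (-0.29, adjusted p = 0.208). Of the members not called, Slc25a1 and Slc25a33 passed without adult fragments replicate 2 (0.0367 and 0.0393), Slc25a42 without replicate 1 (0.0422), and Slc25a11 and Slc25a53 without replicate 3 (0.00134 and 0.0149).

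The 6 genes left out by the filter, Slc25a2, Slc25a34, Slc25a41, Slc25a47, Slc25a48 and Slc25a54, lay under 4 on all 9 arrays. Just outside it, Slc25a47, a carrier of liver, reached 3.67 on 1 adult array. Just inside it were Slc25a23 and Slc25a35, each with 3 arrays over 4, and Slc25a31.

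Other genes that serve these carriers were read from lists drawn up by role. The counts of each list stand beside those of all genes, of which 28.9% were higher and 37.2% lower in embryonic fragments than in rest of brain, 27.4% and 29.7% in adult than in embryonic fragments, and 33.1% and 42.9% in adult fragments than in rest of brain. Carrier proteins are made in the cytosol and brought to the inner membrane by Tomm70a and other receptors, the small Timm chaperones and the Timm22 translocase. Of 12 import genes 8 were lower in embryonic fragments than in rest of brain and 0 were higher, and 6 were lower in adult than in embryonic fragments and 0 higher. Beside rest of brain, 9 were lower in adult fragments. The medians were -0.51, -0.51 and -1.19, against -0.10, -0.02 and -0.17 over all genes. In embryos Timm29, a subunit of that translocase, was lower by 1.19 ± 0.16 (adjusted p = 0.000195). Tomm70a was lower by 0.96 ± 0.13, but turned to 0.76 with the median over its probe sets. Between the ages Tomm40, the channel of the outer membrane, was lower by 1.96 ± 0.17 in adult fragments and Timm13, a chaperone for carriers, by 1.55 ± 0.11 (adjusted p = 1.89e-05 and 8.00e-06). Mtch1 and Mtch2, proteins of the carrier fold in the outer membrane, were lower in all 3 comparisons. In embryos Mtch1 had a difference of -0.89 ± 0.15 and Mtch2 one of -0.39 ± 0.12. Mtch2 was not called in embryos without replicate 1 (adjusted p = 0.0554) or 2 (0.0560) of embryonic fragments, or replicate 3 of rest of brain (0.0575). Its call between the ages (-1.36 ± 0.12) was lost without probe sets open to other transcripts (0.494).

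Of 12 genes of the tricarboxylic acid cycle, whose acids many Slc25 carriers exchange, 1 was higher and 2 lower in embryonic fragments, with a median of -0.01, while 66.1% of all genes were called. Ogdh, of the oxoglutarate dehydrogenase complex, was higher by 0.36 in embryonic fragments than in rest of brain, and Cs, citrate synthase, was lower by 0.57. Idh3a was lower there by 0.43, but not called without replicate 2 of embryonic fragments (0.0837) or replicate 1 of rest of brain (0.0747). Its difference was -1.58 with the median over its probe sets and -1.60 without probe sets open to other transcripts (adjusted p = 1.93e-05 and 3.82e-05). Between the ages, where 57.1% of all genes were called, 6 of the 12 were. Of these 1, Sdha, was higher at 0.41, a call lost without any 1 array other than adult fragments replicate 2 (0.0514 to 0.117), and 5 were lower, with Fh1 and Sdhb lower by 0.79 and 0.67 in adult fragments. Among 6 shuttle enzymes, Gpd2, the mitochondrial arm of the glycerol phosphate shuttle, was higher by 1.58 ± 0.17 in embryonic fragments, while 4 were lower. Got1, an aspartate aminotransferase that works with Slc25a12, was lower by 1.86 ± 0.35. Gpd1 lay under 4 on every embryonic fragment array, against a mean of 5.23 in rest of brain.

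Among 13 other channels and carriers of mitochondrial membranes, 1 was higher in embryonic fragments, the outer membrane channel Vdac2 (0.40), and 7 were lower. The sideroflexins Sfxn5 and Sfxn1 were lower by 3.53 ± 0.41 and 1.46. With the median over its probe sets the difference of Sfxn5 was -1.77. Between the ages 3 were higher and 4 lower, and Sfxn5 was higher by 3.56 ± 0.41 in adult fragments (1.81 with the median over its probe sets), beside the astrocyte markers given above. In mitochondrial one-carbon metabolism, which uses the folate that Slc25a32 is known to carry, 1 of 6 genes was higher and 3 lower in embryonic fragments. Mthfd1l was higher by 1.46 ± 0.15, and Aldh1l2 and Mthfd2l were lower, with differences of -5.27 ± 0.35 and -2.54. Without probe sets open to other transcripts, Mthfd2l had a difference of -1.20. Between the ages 2 were higher and 2 lower. In adult fragments Mthfd1l was lower than in embryonic ones by 2.11 ± 0.15 and Shmt2 by 1.66 ± 0.28. Mthfd2l was higher by 1.11 ± 0.22 (adjusted p = 0.00223), a call lost without probe sets open to other transcripts (0.59, adjusted p = 0.0741). Aldh1l2 was higher by 1.09 (adjusted p = 0.0249), a call lost under 6 of 22 alternatives, with a difference of 0.69 without adult fragments replicate 1 (adjusted p = 0.0530). Of 10 genes of haem and iron-sulphur synthesis, 3 were higher in embryonic fragments and 0 lower. Alas1 was higher by 2.64 ± 0.13 and Iscu by 0.84. Between the ages 3 were higher and 4 lower, among the latter Alas2 and the glutaredoxin Glrx5, by 1.52 ± 0.18.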

How the data were processed

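The series measured RNA of 9 mouse brain samples on arrays of short oligonucleotides. The deposited values are log2 intensities per probe set, which the authors computed by GCRMA (version 2.6.0, R 2.4.1, as the submitters' processing notes say). That method corrects probes for background, normalizes arrays by quantiles and sums probes per probe set. The log2 scale was read from the range of the values. Quantile normalization makes array distributions nearly equal, so a change in total RNA per cell cannot be seen. No slide or date was tested as a batch, since neither was analysed here. No 2 arrays were identical.

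Probe sets were named from the platform annotation, 34958 of 45101 with 1 gene, and all 44 Slc25a genes were found by Entrez identifier in a RefSeq table of GRCm38.p6. The comparisons were 2-sided contrasts of 1 linear model fitted by lmFit and eBayes (limma 3.58.1, R 4.3.3; all 9 arrays, no block, 8.43 degrees of freedom in all), on the 12009 kept genes. Where each of the 3 arrays of a group read under 4, the fold is "at least" the other group's mean over 4. Probe sets were also fitted singly (20636 with at least 4 on at least 3 arrays). The fit was tested on simulated data with independent noise and few changed genes. That setting is unlike these data, so the test does not check the calls given here. Values on every array are given for members called with a log2 difference of at least 1 in size in embryos or between the ages and for all kept iron and adenine nucleotide carriers. From the other lists the 2 largest called differences in each direction were eligible. The members and lists were chosen with earlier results of these data known. The labels call the samples biological replicates. In embryonic fragments of replicates 1, 2 and 3, Xist, expressed in females, read 14.6, 2.84 and 8.13. The Y-linked Eif2s3y read 3.06, 11.9 and 11.9 on these arrays. The part of sex in the differences was not tested, also for the X-linked Slc25a5, Slc25a14 and Slc25a53. By Xist and Eif2s3y the 3 embryonic fragment samples were not repeats of 1 source. Nor were those of rest of brain, where Xist read 13.5, 2.84 and 6.52. In adult fragments Xist read 2.77, 13.3 and 2.85, which does not tell replicates 1 and 3 apart. Where nothing more says that samples came from separate animals, p-values measure the spread between these samples. Between adult replicates 1 and 3 that spread may be technical.

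Embryonic fragments and rest of brain share replicate numbers in the labels. Over the 12009 genes, deviations from the group means correlated at 0.194, 0.199 and 0.217 between arrays of the same number and at -0.209 to -0.021 between others, so the numbers were taken to pair these samples. The blocked result is given where it changes a call. Adult numbers did not pair with embryonic ones (-0.0923 to 0.214). The alternatives were other filters, floors, normalizations, probe set rules, array weights and variance priors, the 2 groups alone, the block, and each array left out. Probe sets called open to other transcripts are those whose names end in _x_at, _s_at or _a_at. Of the kept members 11 were read on such a probe set, and 5 of them on an _x_at or _s_at one. The other transcripts may be of the same gene, and whether any probe set matched another gene was not tested.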

Additional observations from a re-analysis of the deposited data

How the results depend on the processing

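In embryos 20 of 24 called members kept their call and direction under every alternative that gave a value, between the ages 10 of 20 did, and against rest of brain 22 of 29 adult calls did. Leaving out 1 array gave 10 to 12 higher and 11 to 13 lower members in embryos, 9 to 13 and 7 to 11 between the ages, and 12 to 13 and 15 to 18 for adult fragments against rest of brain. With the median over the probe sets of a gene, 7 members in place of 12 were higher between the ages. Slc25a24, Slc25a26 and Slc25a32 were among those that lost this call, and Slc25a36 gained one. The cause of these changes was not tested. The same rule reversed Slc25a51 (-0.51 in embryos, -1.77 between the ages and -2.28 in adult fragments against rest of brain) and Slc25a4 between the ages (-0.33). Tomm70a in embryos (0.76) and Slc25a36 (-1.13 in embryos and -0.69 in adult fragments against rest of brain) were reversed too. The values of Slc25a36 were the same, -1.13 and -0.69, without probe sets open to other transcripts. With the replicate number as a block, 12 members were higher and 13 lower in embryos, and the pairing changed no other call there than those of Slc25a27, Slc25a31 and Slc25a53. Between the ages, where numbers pair nothing, the block gave 8 and 7, and against rest of brain 12 and 15. Cyclic loess moved the median of all genes in the adult comparison with rest of brain from -0.17 to -0.03 and gave 14 higher and 14 lower members there, against 12 and 17. Members near background, such as Slc25a18, Slc25a23, Slc25a31 and Slc25a35, have sizes that depend on the floor. With values under 4 set to 4, Slc25a23 fell by 1.81 in embryos and Slc25a35 rose by 1.83 between the ages.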
